A study of Sus scrofa with 36 samples.

Results

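The hypoxia response and glycolysis genes are 37 listed genes that cover the oxygen-sensing transcription factors, their target genes, the enzymes that break glucose down to pyruvate, and the steps that turn pyruvate to lactate or admit it to mitochondria. They were chosen by name, and their counts in the cerebellum of piglets were looked up by gene identifier. Of the 37, 32 were matched to one of the 31907 identifiers in the count tables and 30 passed the filter on low counts, among 15356 genes that were tested. VHL, CA9, BNIP3, SLC2A3 and SLC16A1 were not matched and were not analysed here. GAPDH and ALDOA were matched but fell below the filter.

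The 36 piglets, crossbred of Danish landrace, Yorkshire and Duroc, were of normal birth weight (NBW) or had intrauterine growth restriction (IUGR), which the study defined by a low birth weight and an altered head shape. From 3 days of age they were fed for 3 weeks a formula in which the fat came from vegetable oil (the VEG diet) or from bovine milk (the MILK diet), which gives 4 groups of 9 piglets of both sexes. The design held no exposure to low oxygen. IUGR was natural, so birth weight was not assigned to the piglets, and litter is not given in the labels.

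Cells respond to low oxygen through hypoxia-inducible factors. HIF1A and EPAS1 encode alpha subunits that pair with the partner encoded by ARNT, and prolyl hydroxylases such as those encoded by EGLN1 and EGLN3 mark the alpha subunits for destruction when oxygen is present. The stabilised factor raises the transcription of genes for vessel growth, glucose uptake, glycolysis and lactate export. The brain runs mainly on glucose, and in the cerebellum neurons and glia use different isozymes of the same steps. Placental insufficiency, a common route to growth restriction, lowers the supply of both oxygen and glucose to the fetus.

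In the 33 libraries used, the total count on genes was between 15516541 and 23027502, with a median of 18025540, and 18635 to 19682 genes were detected. The libraries of piglets 202 (VEG-NBW), 210 (VEG-IUGR) and 213 (MILK-NBW) stood apart in their groups in the share of reads assigned to no gene, at 43.6%, 64.3% and 31.5% against 26.7% to 30.5% in the other 33, and were left out. In the library of piglet 210, 16 of the 30 genes had a count of 0, 23 were below the range of the 33 libraries and 6 above it. In that of piglet 202, 15 genes were below that range, among them 10 of the 11 glycolytic enzymes. There remained 8 piglets in each NBW group, 8 in VEG-IUGR and 9 in MILK-IUGR. Markers of granule neurons summed to between 3741 and 5754 CPM (counts scaled to the total of each library, a relative level) and those of Purkinje cells to between 2311 and 4710 CPM, so the defining neurons of the cerebellum were present in every group.

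The question of main interest was whether growth restriction had left a mark on these genes 3 weeks after birth. None of the 30 genes differed between IUGR and NBW piglets at an adjusted p under 0.05 by edgeR, where 0% of all tested genes did. DESeq2 and limma voom also called 0 of the 30. Here and below, shares over all tested genes are from edgeR alone, so counts by DESeq2 and limma voom have no share beside them. At an unadjusted p under 0.05 there was 1 gene, ALDOC, of 30, by edgeR against 2.19% of all tested genes, and the count was 1 by DESeq2 and 0 by limma voom. The log2 fold changes, IUGR over NBW, ran from -0.25 to 0.15 with a median of -0.01, 13 genes were higher and 17 lower, and the smallest adjusted p was 0.9996. The median size of the change without its sign was 0.035 over the 30 genes and 0.045 over all tested genes. The measurement limits how large an unseen difference can be: the 95% interval lay within 1.2-fold of no change for 24 of the 30 genes and within 1.5-fold for all 30. In whole tissue, fewer cells of a type and less RNA per cell cannot be told apart.

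**Figure D1:**
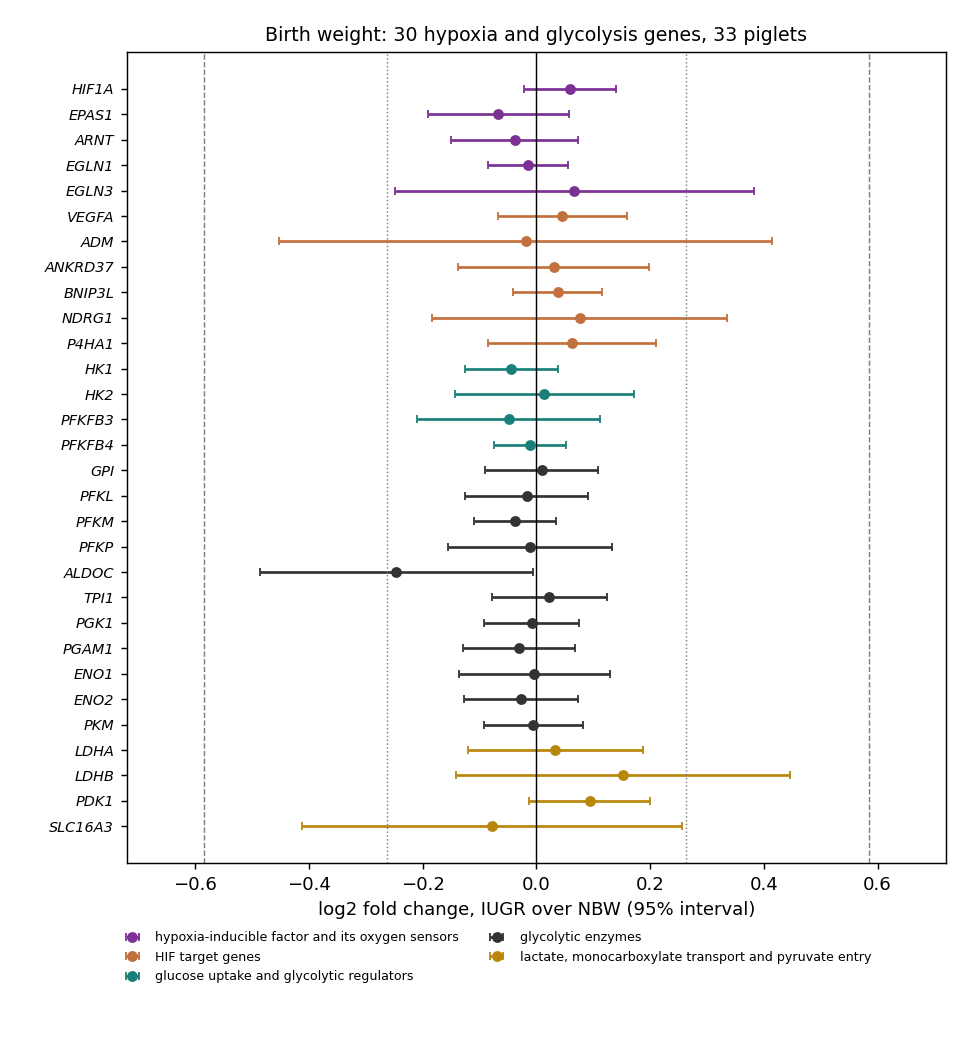
Each point is the log2 fold change of 1 gene, IUGR over NBW, in 33 piglets, with its 95% interval, coloured by the role of the gene. Dotted lines mark 1.2-fold and dashed lines 1.5-fold. The intervals of 24 of the 30 genes lie inside the dotted lines, all 30 lie inside the dashed lines, and only that of ALDOC does not cover 0.

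HIF1A encodes the main oxygen-regulated alpha subunit. Its level was 107 to 123 CPM in VEG-NBW piglets (median 114), 106 to 136 CPM in VEG-IUGR (median 114), 100.5 to 119 CPM in MILK-NBW (median 108) and 104 to 135 CPM in MILK-IUGR (median 112). The groups overlapped in both diets, with a few IUGR piglets above every NBW piglet. The log2 fold change was 0.06 ± 0.04 (SE) with a 95% interval of -0.02 to 0.14. Protein levels of the alpha subunits, which oxygen controls mainly after translation, were not measured here.

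EPAS1, the alpha subunit prominent in vessels and glia, had group medians of 66.6 CPM (VEG-NBW), 63.8 CPM (VEG-IUGR), 71.9 CPM (MILK-NBW) and 68.3 CPM (MILK-IUGR), and its log2 fold change was -0.07 ± 0.06. ARNT, the shared partner, had medians between 34.2 and 36.7 CPM and a log2 fold change of -0.04 ± 0.05. EGLN1, the main oxygen sensor, was among the most even genes: its 33 values lay between 79.1 and 109 CPM, and its log2 fold change was -0.01 with a 95% interval of -0.09 to 0.06.

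EGLN3 encodes a second prolyl hydroxylase that is itself a target of the factor. Its level differed far more between piglets than between groups, at 6.66 to 24.97 CPM in VEG-NBW (median 11.7), 8.2 to 23.9 CPM in VEG-IUGR (median 12.4), 11.7 to 20.4 CPM in MILK-NBW (median 15.1) and 9.16 to 20.7 CPM in MILK-IUGR (median 15.6). VEG-NBW held both the lowest and the highest of the 33 values. The log2 fold change was 0.07 ± 0.15, and its 95% interval of -0.25 to 0.38 is one of the widest.

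Among the 6 target genes tested, none passed the test, 5 were higher and 1 lower in IUGR piglets, and the median log2 fold change was 0.04. VEGFA, the growth factor for vessels and the best known target, was at 24.2 to 36.7 CPM in VEG-NBW (median 31.9), 24.8 to 37.8 CPM in VEG-IUGR (median 31.4), 26.8 to 37.6 CPM in MILK-NBW (median 31.1) and 30.1 to 37.4 CPM in MILK-IUGR (median 35.1). The ranges overlapped in both diets, and the log2 fold change was 0.05 ± 0.06. BNIP3L, a receptor for the removal of mitochondria, had a log2 fold change of 0.04 ± 0.04. NDRG1, a stress-responsive gene that is strongly expressed in myelinating glia, had one of 0.08 ± 0.13, P4HA1, a collagen prolyl hydroxylase, one of 0.06 ± 0.07, and ANKRD37, a small ankyrin-repeat protein, one of 0.03 ± 0.08. ADM, which encodes the vasodilator adrenomedullin, had a median count of 30 per library, and its values spanned 5.79-fold over the 33 piglets, so its log2 fold change of -0.02 ± 0.21 is the least certain of the group.

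Entry of glucose into glycolysis was represented by the hexokinases and by the enzymes that set the level of fructose 2,6-bisphosphate. HK1, the constitutive brain hexokinase, had group medians of 334 CPM (VEG-NBW), 325 CPM (VEG-IUGR), 341 CPM (MILK-NBW) and 326 CPM (MILK-IUGR), and a log2 fold change of -0.04 ± 0.04. HK2, the inducible hexokinase, was at medians of 20.7, 21.9, 21.6 and 20.5 CPM in the same order, with a log2 fold change of 0.01 ± 0.08. PFKFB3, which makes fructose 2,6-bisphosphate and is a classical hypoxia target, had a log2 fold change of -0.05 ± 0.08. Its lowest value, 64.4 CPM, was in a MILK-IUGR piglet and its highest, 142 CPM, in a VEG-IUGR piglet. PFKFB4 was the most even of all 30 genes, with a 1.199-fold span over the 33 piglets and a log2 fold change of -0.01 ± 0.03.

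The 11 glycolytic enzymes tested gave a median log2 fold change of -0.01 for birth weight, with 2 higher and 9 lower, and none passed the test. Without piglet 225 of MILK-IUGR, 6 were higher and 5 lower at a median of 0.0025, and of all 30 genes 17 were higher and 13 lower. That piglet had the lowest GPI, PFKL, PGAM1 and PKM of all 33 and was left out after its values were seen. Leaving out so low an IUGR piglet could only raise the IUGR side for these enzymes, and no NBW piglet was left out in turn. With all 33 piglets, the 95% interval was within 1.2-fold for 10 of the 11. ALDOC, the brain aldolase found mainly in astrocytes and in subsets of Purkinje cells, was the exception. It was at 1.56 to 3.30 CPM in VEG-NBW (median 2.22), 1.37 to 2.67 CPM in VEG-IUGR (median 2.07), 1.96 to 2.82 CPM in MILK-NBW (median 2.31) and 1.22 to 2.86 CPM in MILK-IUGR (median 1.82). IUGR piglets had the lower median and the lowest single value in both diets, while the ranges overlapped. The log2 fold change was -0.25 ± 0.12 with an adjusted p of 0.9996, and by two-sided exact permutation the difference had p = 0.234 within VEG and p = 0.0506 within MILK. ALDOC rested on a median of 40 counts per library, against 992 for PFKP, the next lowest of the 11 enzymes. Whether reads from ALDOC were assigned elsewhere or discarded was not tested, so its counts may not measure the level of the enzyme's RNA. The log2 fold change of ALDOC lay between -0.39 and -0.18 over 11 alternative fits.

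For the other enzymes the measurement was precise. PKM, the pyruvate kinase of brain, had a log2 fold change of 0.00 (-0.0049) with a 95% interval of -0.09 to 0.08. ENO2, the neuronal enolase, was at a log2 fold change of -0.03 ± 0.05 and ENO1, the ubiquitous enolase, at -0.0036 ± 0.065. The values for GPI, PFKL, PFKM, PFKP, TPI1, PGK1 and PGAM1 were between -0.04 and 0.02.

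GAPDH and ALDOA, which encode abundant enzymes in all tissues, had counts of only 0 to 7 (median 1) and 0 to 9 (median 2) in the 33 libraries. LDHB, the lactate dehydrogenase subunit typical of oxidative tissue, had a median count of 23, and RefSeq lists 2 entries under its symbol. In RefSeq's annotation of Sscrofa11.1, GAPDH at chr5:64129678-64135194 overlaps IFFO1 and LOC110260753, and ALDOA at chr3:18246036-18260167 overlaps an uncharacterised locus. Such overlaps are not particular to these genes, since PFKM overlaps SENP1 and had a median count of 6477. Whether reads from GAPDH, ALDOA and LDHB were assigned elsewhere or discarded was not tested, and their low counts are not a measure of the enzymes.

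At the fate of pyruvate, LDHA, which makes lactate, was at 103 to 194 CPM in VEG-NBW (median 144), 115 to 163 CPM in VEG-IUGR (median 156), 128 to 197 CPM in MILK-NBW (median 154) and 126 to 211 CPM in MILK-IUGR (median 166). All groups overlapped, and the log2 fold change was 0.03 ± 0.08. LDHB had a log2 fold change of 0.15 ± 0.14 on its few counts. SLC16A3, the lactate exporter of glycolytic cells, was at medians of 1.83 CPM (VEG-NBW), 1.94 CPM (VEG-IUGR), 1.65 CPM (MILK-NBW) and 1.49 CPM (MILK-IUGR), with a log2 fold change of -0.08 ± 0.16 and a median count of 30.

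PDK1 encodes the kinase that switches off pyruvate dehydrogenase and so keeps pyruvate out of the mitochondrion. It was at 38.3 to 47.3 CPM in VEG-NBW (median 41.2), 37.5 to 57.8 CPM in VEG-IUGR (median 46.3), 36.2 to 46.6 CPM in MILK-NBW (median 43.2) and 34.95 to 47.5 CPM in MILK-IUGR (median 43.8). VEG-IUGR stood highest, and its range still overlapped that of every other group. Over both diets the log2 fold change was 0.09 ± 0.05 with an adjusted p of 0.9996.

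**Figure D2:**
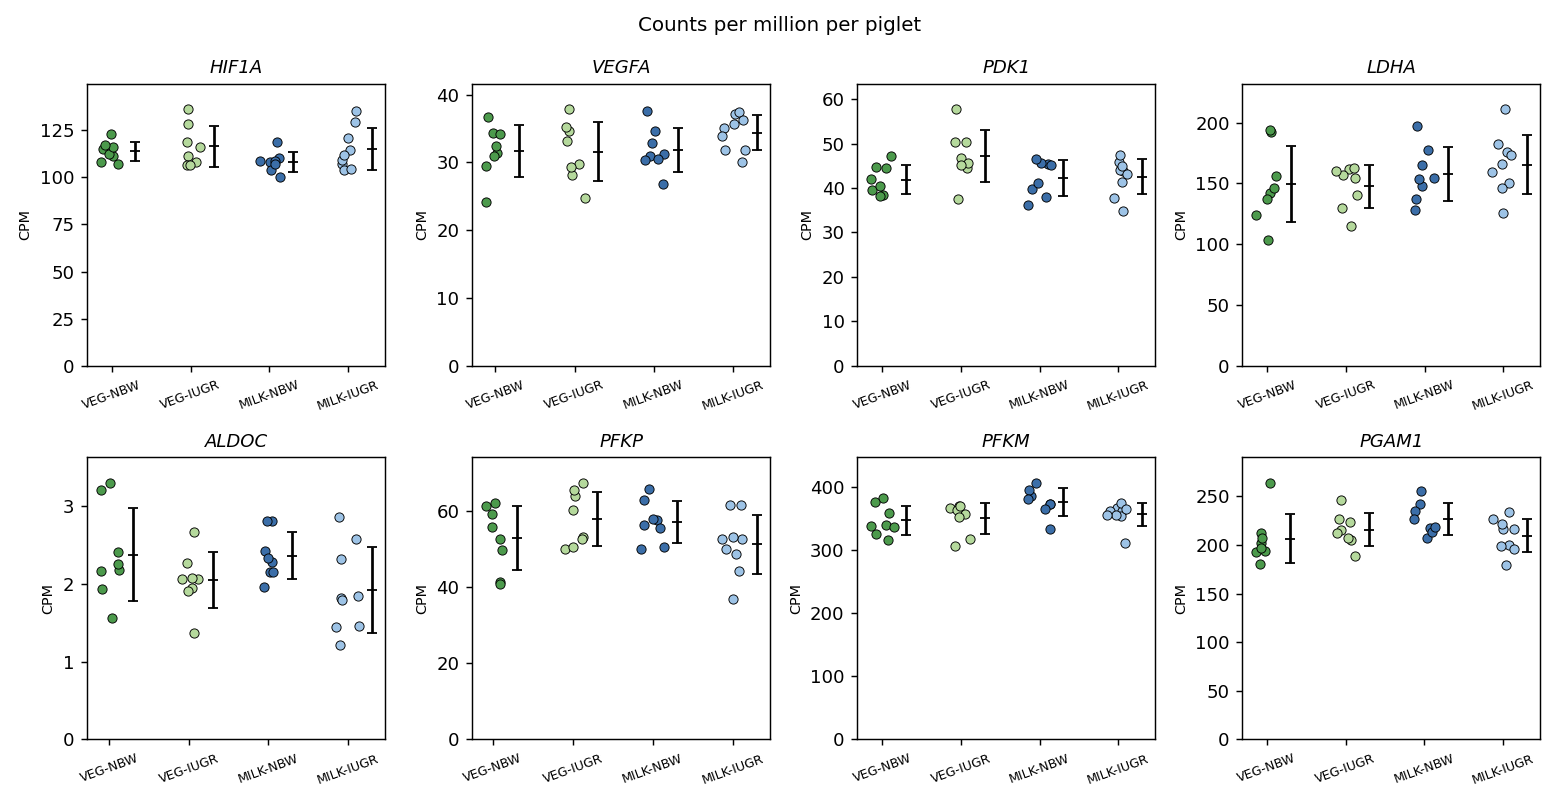
CPM of 8 genes in each of 33 piglets, by group, with the group mean and SD as a bar beside the points. The y axis starts at 0 in each panel. In every panel the groups overlap.

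The comparison of IUGR with NBW within each diet asks whether the fat source altered the effect of birth weight. Within VEG, 0 of the 30 genes were called by edgeR, DESeq2 or limma voom, against 0% of all tested genes by edgeR. At an unadjusted p under 0.05 edgeR counted 1 gene, PDK1, against 2.29% of all tested genes, DESeq2 counted 1 and limma voom 0. PDK1 had a log2 fold change of 0.17 ± 0.07 within VEG (95% interval 0.02 to 0.32), an adjusted p of 0.9996 and a two-sided exact permutation p of 0.0406, and 78.1% of all pairs of a VEG-IUGR and a VEG-NBW piglet had the higher value in the IUGR piglet. With all 36 libraries the same value was 0.43, in a fit where the median over all genes was -0.12. Within MILK its log2 fold change was 0.02 ± 0.07, and the difference between the diets was -0.16 ± 0.10 with an adjusted p of 0.803.

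Within MILK, 0 of the 30 genes were called by any of the 3 tools, against 0% by edgeR over all tested genes. None of the 30 had an unadjusted p under 0.05 by edgeR or DESeq2 and 1 did by limma voom, against 6.24% of all tested genes by edgeR. The smallest adjusted p was 0.771. The 95% interval lay within 1.5-fold for 27 of the 30 genes within VEG and for 26 within MILK. With all 36 libraries, edgeR again called 0 of the 30 genes in either diet, over both diets or for the interaction. Of all genes tested in that fit edgeR also called 0 in each of these comparisons. The count at an unadjusted p under 0.05 was then 4 within VEG (ENO1, ENO2, PDK1 and TPI1, all higher in IUGR piglets), against 8.85% of all genes tested in that fit, and 2 for the interaction (ENO2 and TPI1), against 5.73%. It was 0 within MILK (0.385%) and 0 over both diets (1.87%). All 4 genes stood far above the 33 other libraries in piglet 210 of VEG-IUGR. TPI1 was at 4322 CPM there against 370.2 to 554 CPM, ENO2 at 3148 CPM against 888 to 1261 CPM, ENO1 at 1388 CPM against 453 to 746 CPM and PDK1 at 148 CPM against 34.5 to 58.1 CPM.

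The glycolytic enzymes leaned in opposite directions in the 2 diets. Within VEG 9 of the 11 were higher in IUGR piglets, with a median log2 fold change of 0.06, and within MILK 10 of the 11 were lower, with a median of -0.09. All tested genes had medians of 0.00 (3.37e-05) and -0.0049 in the same comparisons. The difference between the 2 effects, which is the interaction of diet and birth weight, was below 0 for 10 of the 11 enzymes, with a median of -0.13, and it was called for none of the 30 genes by edgeR, DESeq2 or limma voom, against 0% of all tested genes by edgeR. At an unadjusted p under 0.05 edgeR counted 1 of 30, PFKP, against 6.09% of all tested genes, DESeq2 counted 1 and limma voom 2. These 11 values are not independent of one another, since the enzymes varied together between piglets of the same group. The 6 tested genes of the pentose phosphate pathway had medians of 0.06 within VEG, -0.07 within MILK and -0.12 for the interaction. The 7 tested housekeeping reference genes had medians of 0.06, -0.01 and -0.07 in the same order. The 15 tested genes among other glycolysis isozymes and regulators had -0.0019, -0.02 and -0.02. The lean was thus not particular to the 11 enzymes, and the other glycolysis genes did not share it.

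PFKP, the platelet isoform of phosphofructokinase that is prominent in brain, had the interaction of the greatest size among the 11. It was at 40.9 to 62.2 CPM in VEG-NBW (median 54.3), 50.1 to 67.4 CPM in VEG-IUGR (median 56.7), 50.1 to 65.9 CPM in MILK-NBW (median 56.9) and 37.0 to 61.7 CPM in MILK-IUGR (median 52.6). The lowest values of VEG were in NBW piglets and the lowest of MILK in IUGR piglets, with overlap in both diets. The interaction was -0.28 ± 0.13 on the log2 scale with an adjusted p of 0.784, and the two-sided exact permutation p was 0.210 within VEG and 0.0956 within MILK. PGAM1, the mutase of lower glycolysis, followed at -0.18 ± 0.09, and the enolases ENO1 and ENO2 at -0.17 each. PGK1, the first enzyme of the pathway that yields ATP, was the only one of the 11 above 0, at 0.03 ± 0.08.

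Piglet 225 of the MILK-IUGR group weighed on these values, since it had the lowest GPI, PFKL, PGAM1 and PKM of all 33 piglets. Without it, 10 of the 11 enzymes were still lower within MILK, at a median of -0.05 in place of -0.09. The median interaction was then -0.09, that of PFKP was -0.25, and 0 of the 30 genes had an unadjusted p under 0.05 for it. The share of all tested genes in the fit without piglet 225 is not given.

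**Figure D3:**
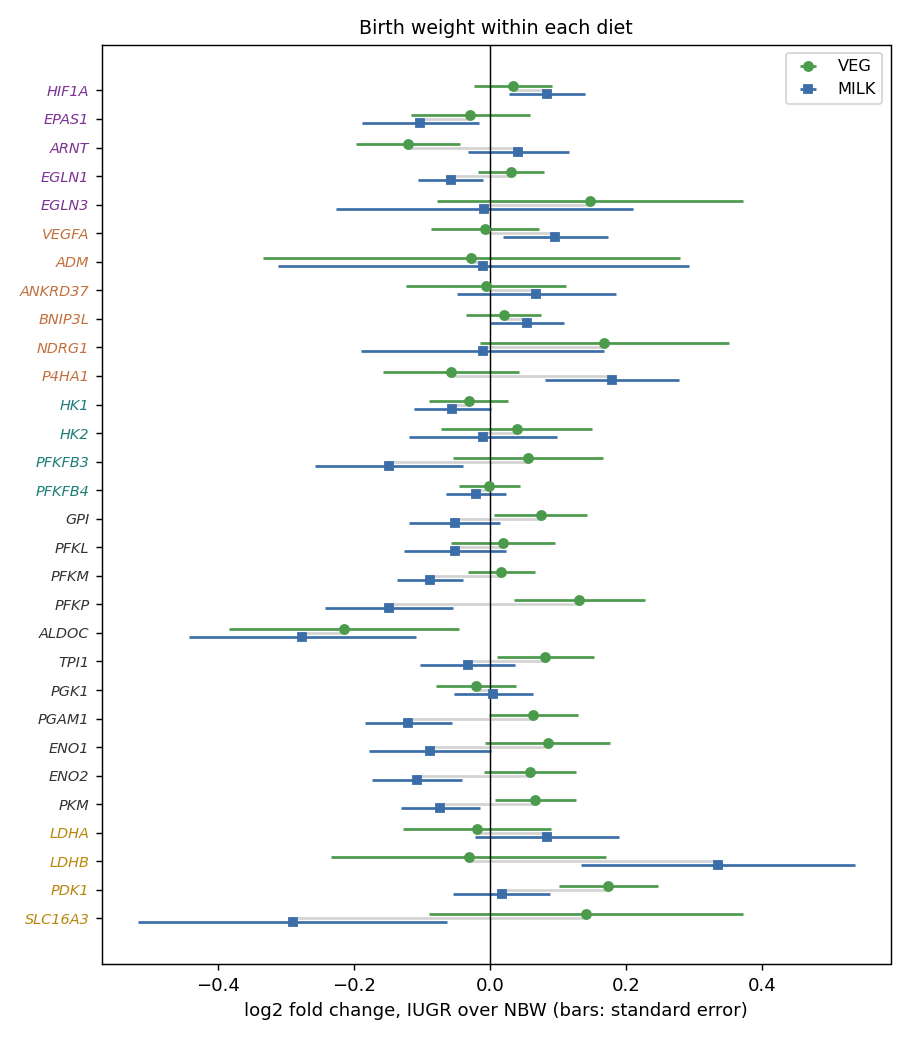
Log2 fold change of IUGR over NBW within VEG (green circles) and within MILK (blue squares) for the 30 genes, with standard errors; gene names are coloured by role as in the plot of birth weight. Among the glycolytic enzymes from GPI to PKM, 9 of 11 green points lie above 0 and 10 of 11 blue points below 0, and none of the differences passed the test.

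A score was formed for each piglet as the mean over the 30 genes of log2 CPM, each gene being standardised over the 33 piglets. It was -0.13 ± 0.39 (SD, n = 8) in VEG-NBW, 0.04 ± 0.16 (n = 8) in VEG-IUGR, 0.12 ± 0.27 (n = 8) in MILK-NBW and -0.04 ± 0.30 (n = 9) in MILK-IUGR. IUGR minus NBW, averaged over the diets, was 0.0038, against an SD of 0.29 between piglets of a group. Over the 11 glycolytic enzymes alone the score was -0.21 ± 0.90, 0.10 ± 0.45, 0.34 ± 0.59 and -0.20 ± 0.64 in the same order of groups, so that IUGR minus NBW was 0.31 within VEG and -0.54 within MILK, each less than the SD of 0.67 between piglets. The difference between these 2 values, the interaction, was -0.85 and so larger than that SD, and -0.69 without piglet 225. Over all 30 genes the interaction was -0.33. No test was made of these scores. For the 11 regulators and target genes the groups differed less, with means between -0.07 and 0.13 and an SD of 0.36.

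**Figure D4:**
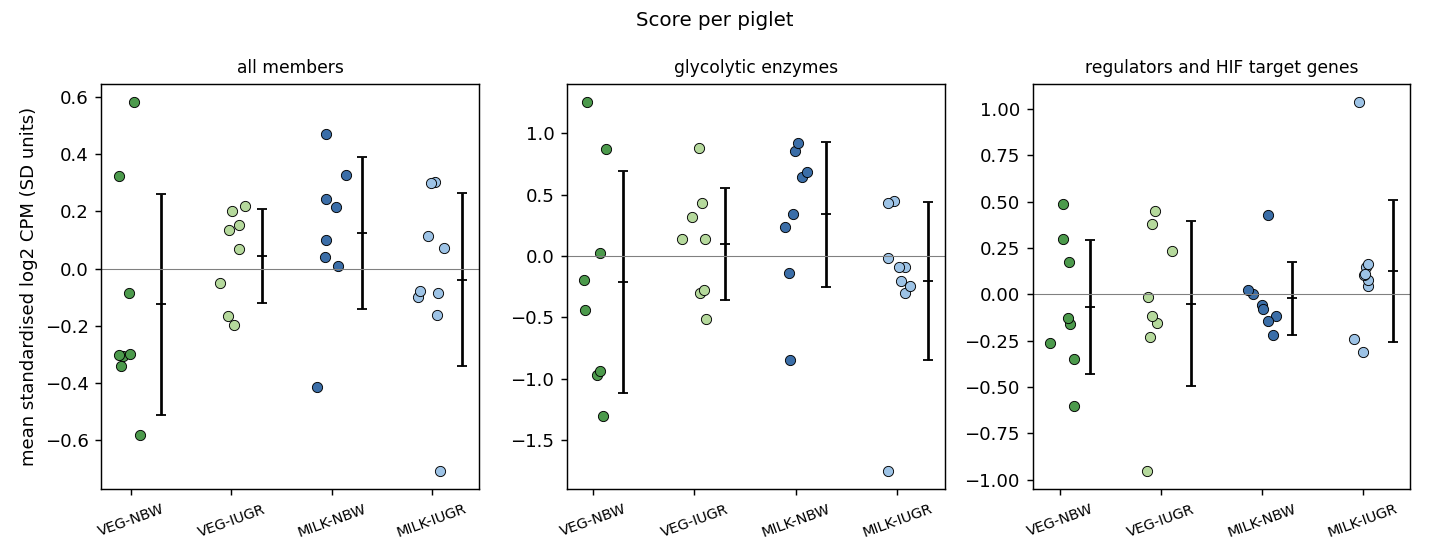
Mean standardised log2 CPM per piglet for all 30 genes, the 11 glycolytic enzymes and the 11 regulators and target genes, by group, with the group mean and SD as a bar beside the points. The points of all 4 groups overlap in each panel, and 1 MILK-IUGR piglet lies at -1.75 in the panel of glycolytic enzymes.

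The diets were compared in the same model. Between MILK and VEG, averaged over birth weight, 0 of the 30 genes were called by any of the 3 tools (0% of all tested genes by edgeR), and 0 had an unadjusted p under 0.05 by edgeR (4.26% of all tested genes), 1 by DESeq2 and 2 by limma voom. Within NBW piglets 0 of the 30 were called by any of the 3 tools (0% of all tested genes by edgeR), and edgeR counted 2 genes, PFKM and PGAM1, with an unadjusted p under 0.05 (6.67% of all tested genes). DESeq2 and limma voom also counted 2 each. PFKM, the muscle-type phosphofructokinase that brain also uses, was at 316 to 382 CPM in VEG-NBW (median 339) and 333 to 406 CPM in MILK-NBW (median 377). Its log2 fold change, MILK over VEG, was 0.12 ± 0.05 with an adjusted p of 0.721 and a two-sided exact permutation p of 0.0247. For PGAM1 the log2 fold change was 0.14 ± 0.07 and the two-sided exact permutation p 0.0564, and 85.9% of pairs had the higher value in the MILK piglet.

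Within IUGR piglets, 0 of the 30 genes were called for diet by any of the 3 tools (0% of all tested genes by edgeR), and PDK1 was the 1 gene with an unadjusted p under 0.05 by edgeR (3.9% of all tested genes). DESeq2 and limma voom also counted 1. The log2 fold change of PDK1, MILK over VEG, was -0.15 ± 0.07, with a two-sided exact permutation p of 0.0786. These comparisons share groups with those of birth weight, and the VEG-IUGR values of PDK1 enter both of its differences.

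Between the sexes, 0 of the 30 genes were called by any of the 3 tools, while edgeR called 0.163% of all tested genes. At an unadjusted p under 0.05 edgeR and DESeq2 each counted 2 genes and limma voom 4, against 2.94% of all tested genes by edgeR. The 2 by edgeR were HK1, with a log2 fold change, male over female, of -0.10 ± 0.04, and ENO2, at -0.12 ± 0.05.

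Much of the variation in these genes was between piglets of the same group. Over the 33 piglets the highest value was 5.79 times the lowest for ADM, 4.04 times for SLC16A3, 3.75 times for EGLN3, 3.70 times for LDHB and 2.85 times for NDRG1. PFKFB4, HIF1A, PFKM, PKM, HK1, EGLN1, BNIP3L, ENO2, GPI, PGAM1, PGK1 and TPI1 spanned less than 1.5-fold. ADM, SLC16A3 and LDHB had few counts, but EGLN3 and NDRG1 did not.

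After the means of group and sex were taken off, the glycolytic enzymes varied together. Over the 33 piglets the median Pearson correlation of their 55 pairs was 0.45, and 92.7% of the pairs were positive, whereas the median over all 435 pairs of the 30 genes was 0.02. The closest pairs of enzymes were GPI with PKM (r = 0.85), TPI1 with ENO1 (0.82) and ENO2 with PKM (0.79). Enzymes paired with regulators and target genes had a median of -0.01. These correlations are descriptions over 33 libraries that share their scaling.

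Each gene was then set against the summed level of markers of 10 cell types and against 2 library measures, in 360 relations chosen after the data were seen. NDRG1 followed oligodendrocyte markers (MBP, MOG, MAG and CNP, 4 matched of 6 listed) closely. Pearson's r was 0.95 and Spearman's rho 0.93, with a permutation p of 1e-05 for each, the smallest that 100000 permutations can give, and adjusted values of 0.000514 and 0.00072. Without the 2 piglets farthest from the median of the markers r was 0.93. EGLN3 did likewise, with r = 0.87 and rho = 0.90, the same permutation p and adjusted values, and r = 0.84 without 2 piglets. The summed oligodendrocyte markers ran from 4936 to 17999 CPM in VEG-NBW, from 5470 to 30175 CPM in VEG-IUGR, from 8215 to 20052 CPM in MILK-NBW and from 7150 to 18458 CPM in MILK-IUGR. EGLN3 and NDRG1 also had the closest correlation of all 435 pairs (r = 0.88). The piglet with the highest NDRG1, 227 of VEG-IUGR, had 175 CPM.

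EGLN3, NDRG1, PGK1 and SLC16A3 were the 4 genes that passed an adjusted permutation p of 0.05 for Pearson's r with the markers of oligodendrocytes, and the same 4 did so with those of astrocytes and Bergmann glia and those of microglia, always positively. All 4 did so negatively with the markers of granule neurons, the most numerous cell of the cerebellum. The same 4 also passed negatively with the share of reads outside annotated genes, a library measure described below. Other genes passed as well. With astrocyte and Bergmann glia markers these were P4HA1 and PFKM (positive) and HK1 (negative). With microglia markers HK2 was positive and PFKFB4 negative, and with granule neuron markers EPAS1 and HK2 were negative. With Purkinje cell markers GPI and PKM were positive and EGLN1 negative. For SLC16A3 and granule neurons r was -0.76 and rho -0.69, with permutation p of 1e-05 and 4e-05, adjusted values of 0.000514 and 0.0016, and r = -0.71 without the 2 farthest piglets. HK1 went the other way, with r = 0.52 and rho = 0.51 for granule neuron markers (permutation p 0.00177 and 0.0025, adjusted 0.0265 and 0.036, r = 0.39 without 2 piglets). HK1 was negative with the markers of microglia (r = -0.60, rho = -0.65, permutation p 0.00017 and 7e-05, adjusted 0.00437 and 0.00252, r = -0.64 without 2 piglets).

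PDK1 correlated with the markers of granule cell progenitors and dividing cells (ATOH1, TOP2A, CCNB1, CDK1 and GLI1, 5 matched of 6 listed), with r = 0.53 and rho = 0.51, permutation p of 0.00159 and 0.00304, adjusted values of 0.0249 and 0.0405, and r = 0.49 without 2 piglets. These markers summed to 79.5 to 151 CPM in VEG-NBW, 87.3 to 143 CPM in VEG-IUGR, 88.8 to 130 CPM in MILK-NBW and 85.5 to 129 CPM in MILK-IUGR, with medians of 108, 123, 98.4 and 96.6 CPM. The median was thus highest in VEG-IUGR, the group in which PDK1 was highest. LDHB, with its few counts, also passed positively for Pearson's r with these markers. Its median was highest in MILK-IUGR, at 1.58 CPM against 1.38 CPM in VEG-IUGR. The part of these markers in the values of PDK1 and LDHB was not tested. PFKP was the 1 gene that passed, positively, for Pearson's r with the markers of meninges and fibroblasts. With those markers the 11 glycolytic enzymes had r between 0.19 and 0.52. The meningeal markers had medians of 671, 704, 673 and 555 CPM in the same order of groups, and means of 652, 648, 702 and 594 CPM. Their part in the PFKP values was not tested.

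A library measure moved with some of the enzymes and with some of the other genes. The share of reads that fell outside annotated genes was 7.67% to 12.5% over the 33 libraries, with group medians of 10.1% in VEG-NBW, 9.46% in VEG-IUGR, 9.75% in MILK-NBW and 9.73% in MILK-IUGR. PGK1 was lower where that share was higher (r = -0.80, rho = -0.70, permutation p 1e-05 and 2e-05, adjusted 0.000514 and 0.00103, r = -0.70 without the 2 farthest libraries), and so was TPI1 (r = -0.70, rho = -0.71, permutation p 2e-05 for both, adjusted 0.00072 and 0.00103, r = -0.62 without 2 libraries). ENO1 also passed (r = -0.49, rho = -0.52, permutation p 0.00407 and 0.00214, adjusted 0.0426 and 0.0321, r = -0.43 without 2 libraries). Outside the enzymes, EGLN3, NDRG1 and SLC16A3 passed negatively for Pearson's r, and ARNT passed positively. Of the 11 glycolytic enzymes 8 had a negative r, with a median of -0.33. For PFKP the relation was r = 0.11 and rho = 0.11 (permutation p 0.559 and 0.557, adjusted 0.743 and 0.768). The total count per library passed the adjusted threshold with none of the 30 genes. The mean share was 10.2% in VEG-NBW and 9.54% in VEG-IUGR, and 9.5% in MILK-NBW and 9.76% in MILK-IUGR. By means it was thus lower in IUGR piglets within VEG, where most enzymes were higher in them. It was higher in IUGR piglets within MILK, where most enzymes were lower. The medians did not show the latter, at 9.75% in MILK-NBW and 9.73% in MILK-IUGR. The lowest share, 7.67%, was in piglet 234 of MILK-NBW and lowers the mean of that group. The part of the unannotated share in the differences between groups was not tested.

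**Figure D5:**
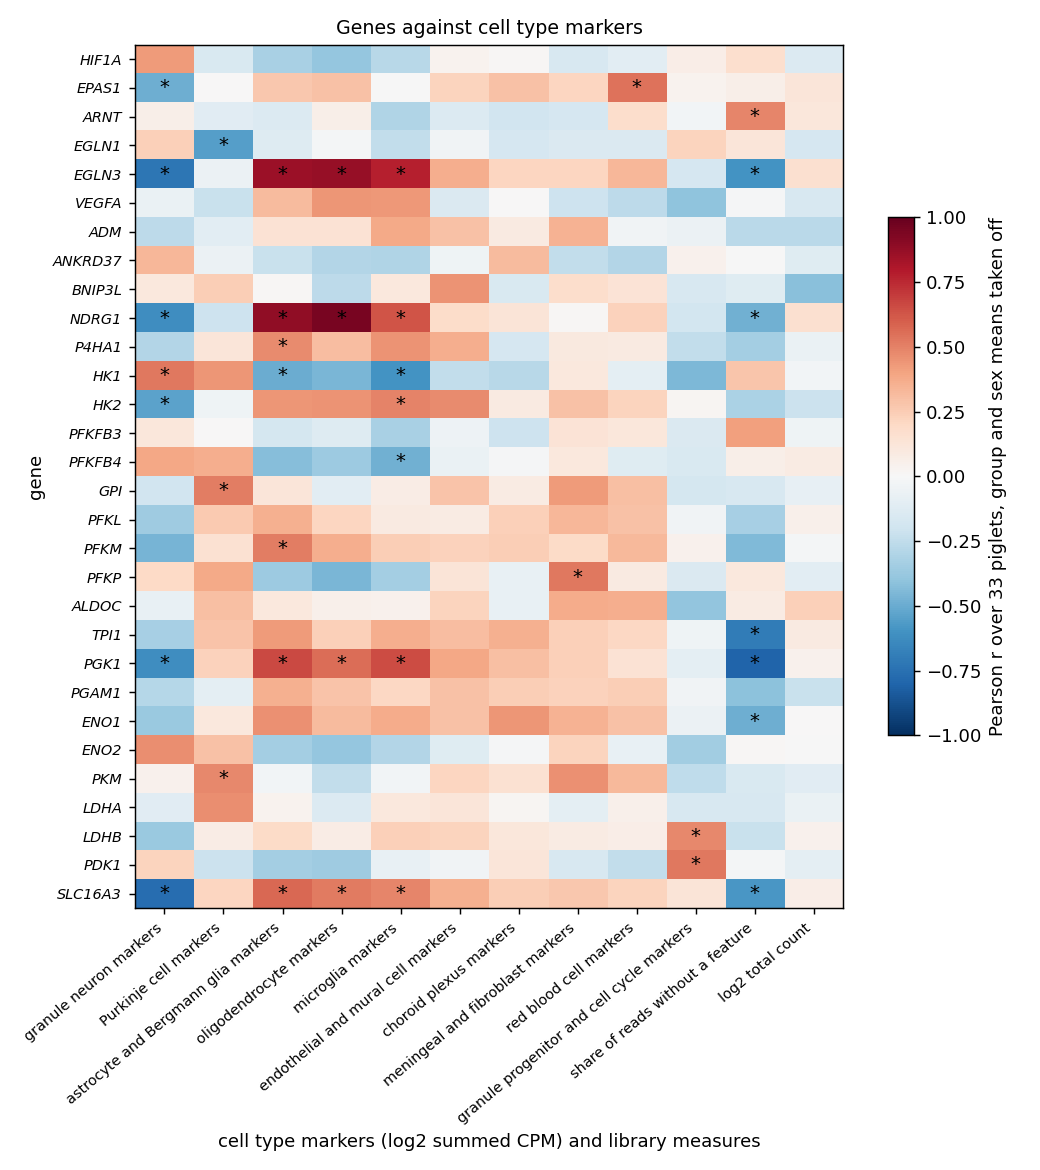
Pearson correlation over 33 piglets of each of 30 genes (rows) with the log2 summed CPM of markers of 10 cell types and with 2 library measures (columns), after group and sex means were taken off; red is positive, blue negative, and an asterisk marks an adjusted permutation p under 0.05 over 360 relations. EGLN3, NDRG1, PGK1 and SLC16A3 are red with glial markers and blue with granule neuron markers, and HK1 has the opposite signs.

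A further 114 genes of the same pathways, of which 105 were matched and 101 tested, cover other parts of the hypoxia response, other isozymes of glycolysis, pyruvate and lactate handling, the shuttles that carry NADH electrons into mitochondria, the pentose phosphate pathway and glycogen metabolism. None was called in any comparison of birth weight or diet by edgeR. At an unadjusted p under 0.05 their shares lay near those of all tested genes. For birth weight 2 of the 101 passed it, both higher in IUGR piglets (1.98%, against 2.19% of all tested genes). Within VEG 1 was higher and 1 lower (1.98% against 2.29%), within MILK 6 were higher and 1 lower (6.93% against 6.24%), and for the interaction 3 were above and 3 below 0 (5.94% against 6.09%). PDK4, a sister kinase of PDK1 that responds to fasting and fat, had a log2 fold change of 0.25 ± 0.10 for birth weight. Its level was 12.8 to 15.9 CPM in VEG-NBW (median 14.8), 12.9 to 21.3 CPM in VEG-IUGR (median 15.8), 13.3 to 21.2 CPM in MILK-NBW (median 18.4) and 15.3 to 34.8 CPM in MILK-IUGR (median 18.8), with the highest values in MILK-IUGR and overlap in both diets. P4HA2, a relative of P4HA1 in collagen synthesis, was at 0.29 ± 0.12.

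For the interaction, SIAH2, a ubiquitin ligase that acts on the oxygen sensors, was at -0.25 ± 0.09, DLD, a shared subunit of pyruvate dehydrogenase, at 0.30 ± 0.12, ANGPTL4, a hypoxia-induced inhibitor of lipoprotein lipase, at -0.92 ± 0.42, and GPD2, the mitochondrial glycerol phosphate dehydrogenase, at 0.18 ± 0.07. The adjusted p was 0.784 for each of these 4. The groups whose medians stood highest differed among them: SIAH2 was highest in MILK-NBW, at 21.2 CPM, and DLD in MILK-IUGR, at 167 CPM.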

How the data were processed

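Cerebellar RNA of 36 piglets was sequenced in read pairs. For each piglet the authors deposited raw counts per gene, with no normalization. The submitters' processing notes name Trim Galore, HISAT2, HTSeq and DESeq2 and the build Sscrofa11.1. The annotation release and strand setting are not given in the sources used here, so overlapping and antisense genes cannot be told apart. Symbols came from a table of pig gene names and positions from RefSeq's annotation of the same build.

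The study excluded 3 libraries for poor RNA integrity and gives the group of each but not the piglet. Piglets 202, 210 and 213 were left out here from their share of unassigned reads. Their groups (VEG-NBW, VEG-IUGR and MILK-NBW) are those the study gives, and that they are the same libraries is an assumption. The main test was the quasi-likelihood F test of edgeR 4.0.16 under R 4.3.3, across all genes past filterByExpr (minimum count 10), with TMM scaling and sex as covariate, and p-values were adjusted by the Benjamini-Hochberg method over all 15356 genes. DESeq2 1.42.0, limma 3.58.1 voom, other scaling, filters, covariates and sets of libraries were alternatives. CPM and log2 CPM (prior count of 2) use TMM scaling, and single genes were also tested by exact permutation of 2 groups, with 12870 or 24310 relabellings. Correlations use log2 CPM after linear removal of group and sex, with 100000 permutations of these residuals. The code was tested on simulated data.

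Values with tests are given for the regulators and key steps, members with an unadjusted p under 0.05, the 5 with the smallest p for birth weight, and at most 2 genes from each other list. Genes described for their spread, correlation or library were chosen after their values were seen, as was leaving out piglet 225. Members and lists were chosen with earlier results of these data known. Each piglet is 1 library, no number pairs piglets across groups, and litter, a random effect in the study's mixed models of continuous data (its counts were fitted with DESeq2), is not in the labels. Counting error weighs more on the genes whose counts are given as low and on ANKRD37, which had a median count of 77 per library. A marker gene that is not reported here was left out of its cell type's sum.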

Additional observations from a re-analysis of the deposited data

Results flagged for a closer look

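A value was marked when the gap between the highest or lowest piglet of a group and the next was large against the range of the group (Dixon's limit at 95%). Chance marks about 1 in 20 groups, and 10 of 120 combinations of gene and group and 4 of 12 of score and group were marked. Values are log2 CPM unless given as a score.

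Piglet 225 of MILK-IUGR was marked most often. It was low in GPI at 8.42 (the other 8 between 8.64 and 8.85), in PFKM at 8.28 and in PKM at 10.10, high in ARNT at 5.50, and low in the score of all 30 genes at -0.71 and of the glycolytic enzymes at -1.75, where the other 8 lay between -0.30 and 0.45. Piglet 207 of the same group was high in PGK1 at 8.25 and in the score of regulators and target genes at 1.04.

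In VEG-NBW, piglet 216 was high in HK2 at 4.87 and PGAM1 at 8.04, and piglet 200 low in EGLN1 at 6.31. In MILK-NBW, piglet 234 was high in PGK1 at 8.23, piglet 208 low in LDHB at -0.44, and piglet 230 high in the score of regulators and target genes at 0.43. The share of reads outside annotated genes was 8.70% for piglet 216, 7.67% for 234, 8.82% for 207 and 10.3% for 225, and each of the first 3 was the lowest of its group.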

How the results depend on the processing

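The count of 0 called among the 30 genes held in all 69 alternative fits of the 8 comparisons. The share of all tested genes called is not given for most of these fits. The score differences moved by less than 1 SD between piglets in 33 of 40 alternatives. The 40 include scores of the glycolytic enzymes alone and of regulators and target genes alone, which are other sets of genes and not other processing. With all 36 libraries the score difference was -0.17 within VEG and 0.16 for the interaction. For the glycolytic enzymes alone it was -0.54 within MILK and -0.85 for the interaction (-0.69 also without piglet 225), and for regulators and target genes alone 0.15 and 0.13. With all 36 libraries the median over all genes moved to -0.12 within VEG, 0.14 for the interaction and 0.13 for diet within IUGR.

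The log2 fold changes of named genes kept their direction in 196 of 209 alternatives, and the cause of the 13 changes was not tested. For birth weight the reversed values were, with all 36 libraries, -0.070 for HIF1A, 0.0070 for EGLN1, -0.0057 for HK2 and -0.048 for LDHA; in females only, 0.011 for ARNT, 0.047 for EGLN1, -0.034 for EGLN3 and 0.00092 for PFKFB3; in males only, -0.080 for HK2 and 0.043 for SLC16A3; and for HK2 -0.0042 by limma voom and -0.0034 without piglet 207. For sex, HK1 was at 0.0039 with all 36 libraries. No paired analysis was possible because no number in the labels pairs piglets across groups. The low counts of ADM, ALDOC, LDHB and SLC16A3 limit their precision, and for birth weight the 95% interval reached beyond 1.2-fold for 6 of the 30 genes.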
